A study of Homo sapiens with 9 samples.

Results

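The genes examined here make fatty acids and cholesterol or control that synthesis, and the measurement is where Ago was bound on their transcripts after transfection of either strand of miR-342. The set has 37 genes out of 20163 protein-coding genes in the annotation, chosen by name for their role in lipogenesis, cholesterol synthesis and the SREBP pathway. A peak was assigned to a gene when its midpoint lay in the gene body on the same strand. By this rule the set held 34 of the 8460 deposited peaks, of which 20 were among the 3450 miR-342-3p peaks and 14 were among the 5010 miR-342-5p peaks. Ago-HITS-CLIP, in which Ago is UV crosslinked to the RNA it holds and the attached fragments are sequenced, had been carried out in MDA-MB-231HM (231HM) cells, a highly metastatic variant of a human triple negative breast cancer (TNBC) line with the genotype given as WT. The 9 libraries came from cells transfected with a miRVana mimic at 20 nM by Lipofectamine RNAiMAX and crosslinked 48 h later, with 3 replicates of each strand of miR-342 and 3 of a negative control mimic. The peak lists merge the replicates of each miR-342 mimic over the same negative control libraries, so no level per library, no SD and no depth per library could be given. Because both lists share that control, their values are set side by side and are not independent of each other.

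Fatty acid synthesis starts from citrate, which ACLY splits to cytosolic acetyl-CoA. ACACA carboxylates it to malonyl-CoA and FASN builds palmitate, which desaturases, elongases and acyl-CoA synthetases modify further. Cholesterol is made from the same acetyl-CoA through mevalonate, isoprenoids, squalene and lanosterol. Both routes are under the control of the SREBP transcription factors, which SCAP escorts from the endoplasmic reticulum for cleavage by proteases in the Golgi when sterols are low, and which INSIG proteins hold back when sterols are high. A miRNA guides Ago mainly through its seed, the bases near its 5′ end.

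The 2 mature strands come from opposite arms of 1 hairpin and have different seeds, so that each has its own target sites. They are shown with bases 2 to 8 in capitals, as listed by RefSeq.
miR-342-3p: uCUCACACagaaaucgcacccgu
miR-342-5p: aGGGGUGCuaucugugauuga
A site is called a 7mer-m8 when it pairs with bases 2 to 8 (GTGTGAG for miR-342-3p and GCACCCC for miR-342-5p), a 7mer-A1 when it pairs with bases 2 to 7 and is followed by an A (TGTGAGA and CACCCCA, respectively), and an 8mer when it has both (GTGTGAGA and GCACCCCA, respectively). A 6mer is the part that both 7mers share. Searches covered 50 nt on each side of the summit of a peak, on its strand.

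The miR-342-3p sites in exons that lay within 50 nt of a miR-342-3p summit were found in 6 of the genes. They are shown because they are the positions where a peak and a seed match of the mimic coincided, as the mRNA strand from 5′ to 3′ on GRCh37 (hg19) in windows of 30 nt with the site in capitals.
FASN, coding exon, chr17:80039897-80039926, minus strand: tggagcgtatcTGTGAGAaacgccggcacg
SREBF1, coding exon, chr17:17717609-17717638, minus strand: gcctgaccatcTGTGAGAaggccagtgggt
INSIG2, 3′UTR, chr2:118867158-118867187, plus strand: agtactctgggGTGTGAGtatgtgtgcaca
IDI1, 3′UTR, chr10:1086880-1086909, minus strand: taagcgacattTGTGAGAgattattgtaaa
CYP51A1, 3′UTR, chr7:91742512-91742541, minus strand: aattattgtgtGTGTGAGgatggaagggta
ACSL4, 3′UTR, chrX:108885399-108885428, minus strand: tgattttaaatGTGTGAGtgcatgtactat
The miR-342-5p sites in exons with a miR-342-5p summit lay in 7 of the genes and are shown in the same way.
ACLY, 3′UTR, chr17:40023629-40023658, minus strand: atacatttaaaGCACCCCAatgtctctctt
ACACA, 3′UTR, chr17:35442353-35442382, minus strand: tatgaagtcctGCACCCCccaggaggcctg
FASN, coding exon, chr17:80049286-80049315, minus strand: ggccagcggacGCACCCCtgaggccgtgca
SREBF2, 3′UTR, chr22:42301793-42301822, plus strand: ctcaggccagtGCACCCCtgggcagagccc
SCAP, coding exon, chr3:47467605-47467634, minus strand: ctgatgcttctGCACCCCAgccccaactgc
LPIN1, coding exon, chr2:11928524-11928553, plus strand: ggacaacagcaGCACCCCtcctcctggcaa
ACSL4, 3′UTR, chrX:108885364-108885393, minus strand: ctcagatatttGCACCCCcaatctgccccc

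Ago binding over control was recorded in 15 of the 37 genes and was not listed in 22. A miR-342-3p peak lay in 10 genes (27.0%), beside 11.8% of all protein-coding genes. A miR-342-5p peak also lay in 10 genes (27.0%), beside 11.8% of all protein-coding genes. A 3′UTR peak was present in 6 genes for miR-342-3p (16.2%, with 4.64% of all protein-coding genes) and in 4 for miR-342-5p (10.8%, with 2.91%). These shares of all genes include genes that the cells do not express, and expression was not measured here, so the part of expression in the difference was not tested. The share of all genes with a peak in either list was not counted, so the roles are given by list, beside the same 11.8%. Of the 5 genes of the core fatty acid pathway, 3 (60%) had a miR-342-3p peak and 3 (60%) a miR-342-5p peak. The respective numbers were 3 (42.9%) and 2 (28.6%) of the 7 SREBP regulators. They were 2 (40%) and 2 (40%) of the 5 genes of acyl-CoA activation and glycerolipid synthesis. For the 6 desaturases and elongases they were 0 and 2 (33.3%), and for the 12 genes of sterol synthesis 2 (16.7%) and 1 (8.33%). The 2 genes of sterol traffic, NPC1 and STARD4, had no peak. These groups are small, so the counts are description only.

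The score of a peak is described by the study's methods as reads above background, and the lists start at 5. Over the 20 miR-342-3p peaks of the set it ran from 5 to 559 with a median of 33.5, and the median of all miR-342-3p peaks was 24. Over the 14 miR-342-5p peaks it ran from 7 to 52 with a median of 24, and the median of that list was 19. How the libraries of the lists were scaled is not given in the sources used here, so scores are compared within a list.

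**Figure D1:**
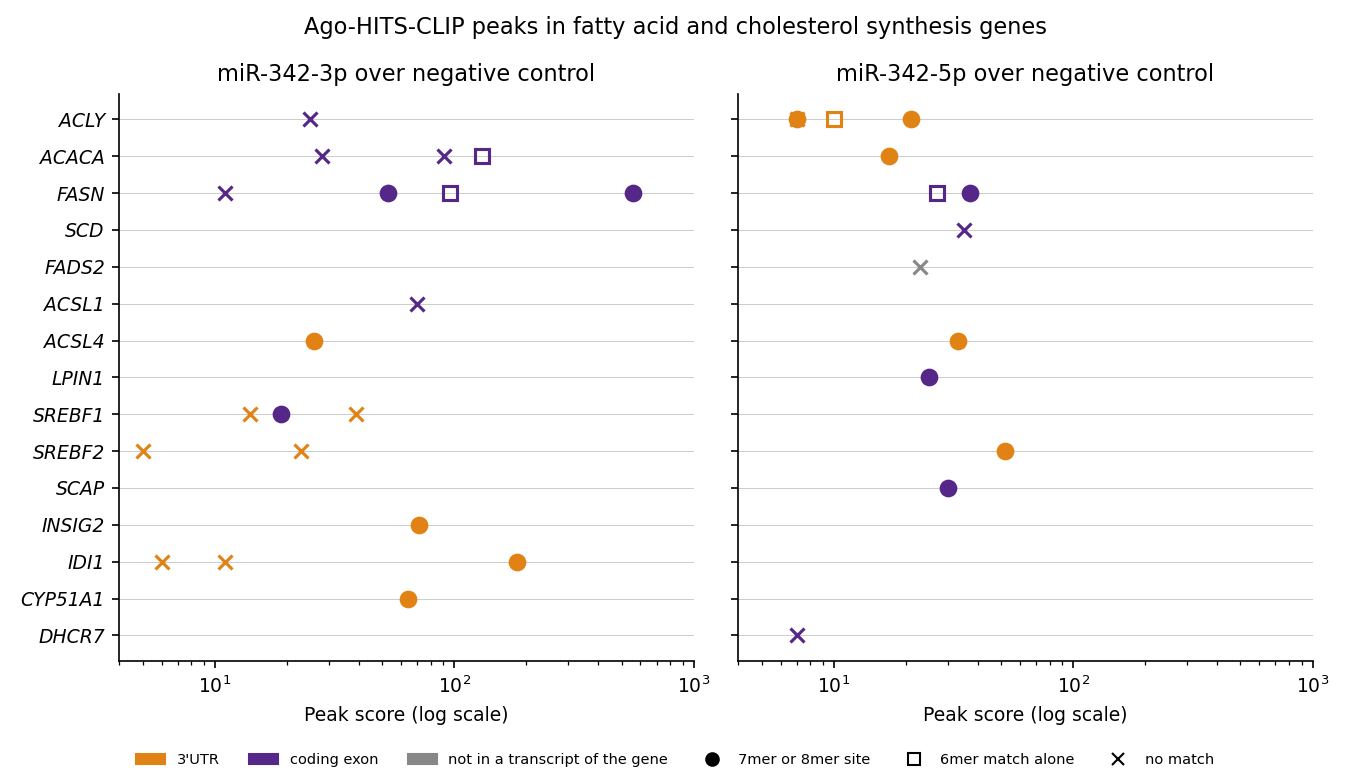
Scores of the 20 miR-342-3p peaks (left) and 14 miR-342-5p peaks (right) on a log axis, with 1 row for each of the 15 genes that have a peak; colour gives the location and symbol shape the best seed match within 50 nt of the summit. The FASN peak at 559 stands furthest right, and at a score of 7 in ACLY a peak with a site and a peak without a match lie on top of each other.

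Of the core fatty acid genes, FASN, ACACA and ACLY had peaks for both mimics, while ACACB, the acetyl-CoA carboxylase of the mitochondrial surface, and ACSS2, which makes acetyl-CoA from acetate, had none. FASN, the multienzyme that builds palmitate, carried the highest score of the set. Its miR-342-3p peak at chr17:80039885-80039950 had a score of 559 and ranked 32 of 3450, within the top 0.928% of the list. This peak lies in exon 36 of 43, in the coding sequence, and the 7mer-A1 site shown above is 4 nt from its summit. A neighbouring peak at chr17:80039952-80040036 scored 96 and had a 6mer 1 nt from its summit. Together the 2 peaks span the 152 nt of exon 36 from its first to its last base except for the 1 base between them.

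FASN had 2 further miR-342-3p peaks, both in coding exons. The one at the edge of exon 10, at chr17:80048758-80048815, scored 53, and its 7mer-m8 match 41 nt from the summit lies beyond the exon in the intron. The peak itself holds a 6mer within the exon, and the spliced window has this 6mer alone. The other, at chr17:80051543-80051613 in exon 4, scored 11 and had no match. For miR-342-5p, FASN had a peak of score 37 at chr17:80049268-80049368 in exon 9, with a 7mer-m8 site 10 nt from the summit that pairs with bases 1 to 8. A second peak, at chr17:80045688-80045737 at the edge of exon 19, scored 27 and had a 6mer. The FASN peaks of the 2 mimics do not overlap, and the closest pair of summits is 536 nt apart in the genome. An intron lies between them, and in the spliced mRNA they are at positions 1402 (miR-342-5p, exon 9) and 1786 (miR-342-3p, exon 10). The FASN mRNA holds 7 miR-342-5p sites of 7 nt, and 1 of them, the one in exon 9, had a summit within 50 nt. The 3 in the 3′UTR overlap one after the other (chr17:80036960-80036976) and are counted separately.

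ACACA, which makes malonyl-CoA and sets the rate of the pathway, had 3 miR-342-3p peaks in coding exons, none with a 7mer or 8mer. The first scored 131 (rank 274) and ends at the edge of exon 16, at chr17:35608980-35609034. It has a 6mer in that exon 34 nt from its summit, outside the peak itself. The second scored 28, has no match and starts at the facing edge of exon 15, at chr17:35609812-35609875. Their summits are 802 nt apart in the genome but 25 nt apart in the spliced mRNA, so both lie at 1 exon junction. The third scored 91, at the edge of exon 11 (chr17:35620588-35620623), and had a 6mer once the exons were joined. The single miR-342-5p peak of ACACA, by contrast, lies in the 3′UTR, 1884 nt after the stop codon. It spans chr17:35442296-35442394 with a score of 17, and the summit is 1 nt from its 7mer-m8 site.

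ACLY had 1 miR-342-3p peak, of score 25 and without a match, at the edge of exon 8 (chr17:40062781-40062809). Its 4 miR-342-5p peaks all lie in the 3′UTR, between 153 and 449 nt after the stop codon. The highest, of score 21 at chr17:40023624-40023718, has the 8mer 4 nt from its summit, and pairing with the mimic runs from base 2 to base 9. The peak beside it, at chr17:40023604-40023621 with a score of 7, reaches the same 8mer 29 nt from its summit, so these are 2 peaks for 1 site. The remaining peaks scored 7 without a match and 10 with a 6mer. In this gene the miR-342-3p peak thus lay in the coding sequence and each of the miR-342-5p peaks in the 3′UTR.

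Desaturation and elongation genes had no miR-342-3p peak in any of 6 genes. SCD, which introduces the first double bond into saturated acyl-CoA, had a miR-342-5p peak of score 35 in coding exon 2 (chr10:102107928-102107994) with no seed match. A miR-342-5p peak of score 23 lies within the FADS2 gene body at chr11:61563596-61563647, but in no exon or intron of the FADS2 transcripts used. It falls in the coding sequence of FEN1, a flap endonuclease of DNA replication on the same strand, and the count of 10 genes includes it only through the gene body rule. ELOVL1, ELOVL5, ELOVL6 and FADS1 had no peak.

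Among the genes that activate fatty acids or pass them to glycerolipids, ACSL4, the acyl-CoA synthetase that prefers arachidonate, had peaks for both mimics in its 3′UTR. The miR-342-3p peak at chrX:108885400-108885469 scored 26 and has a 7mer-m8 site 17 nt from the summit. The miR-342-5p peak at chrX:108885362-108885484 scored 33 and has its own 7mer-m8 site 6 nt from the summit. The summits are 46 nt apart, at 1827 and 1873 nt after the stop codon. This miR-342-5p peak was also the 1 peak of the 34 with a site of the other mimic in its window. The 30 nt around each summit occur a second time in the genome, on chromosome 19 outside annotated genes, so reads confined to these bases cannot be told apart by sequence.

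ACSL1, another acyl-CoA synthetase, had a miR-342-3p peak of score 70 at chr4:185684314-185684352 in coding exon 16. It had no seed match, although the spliced window holds a run of 7 nt that pairs with bases 3 to 9. LPIN1, a phosphatidate phosphatase that makes diacylglycerol, had a miR-342-5p peak of score 25 that covers 48 of the 70 nt of coding exon 12 (chr2:11928513-11928560). Its 7mer-m8 site lies 8 nt from the summit and pairs with bases 1 to 9, the longest run of pairing among the peaks of the set. ACSL3 and GPAM, the mitochondrial enzyme that starts glycerolipid synthesis, had no peak, although GPAM holds 2 miR-342-5p 8mers, 1 in the 3′UTR and 1 in the coding sequence.

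Among the SREBP regulators, peaks were listed in SREBF2, SREBF1, SCAP and INSIG2. SREBF2, which encodes the SREBP that mainly serves cholesterol synthesis, carried the highest miR-342-5p score of the set. That peak scored 52 (rank 806 of 5010), lies 136 nt after the stop codon at chr22:42301759-42301832, and has a 7mer-m8 site 7 nt from its summit. For miR-342-3p, SREBF2 had peaks of 5 and 23 further along the 3′UTR, 1268 and 1481 nt after the stop codon, and neither had a match. SREBF1, which encodes the SREBPs that mainly serve lipogenesis, showed peaks for miR-342-3p alone. The one in coding exon 16 (chr17:17717608-17717724) scored 19 and has a 7mer-A1 site 15 nt from the summit. The other 2 scored 39 and 14 and lie in the 3′UTR without a match, and in another SREBF1 transcript the first of these positions is coding. The SREBF1 3′UTR holds a miR-342-5p 7mer-m8 site at chr17:17715909-17715915 for which no peak was listed.

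SCAP, the sterol sensor that escorts SREBPs, had a miR-342-5p peak of score 30 in coding exon 7 (chr3:47467567-47467658), with an 8mer 7 nt from its summit. INSIG2, which retains SCAP in the endoplasmic reticulum, had a miR-342-3p peak of score 71 at chr2:118867119-118867211, 1281 nt after the stop codon, with a 7mer-m8 site 7 nt from the summit. Its relative INSIG1 holds the 1 miR-342-3p 8mer found in the exons of the set, in its 3′UTR, but no peak was listed there. MBTPS1 and MBTPS2, the site-1 and site-2 proteases, had none. The introns of SREBF2 and SREBF1 host the hairpins of MIR33A and MIR33B, which target sterol efflux genes, and 0 peaks of either list lay on these hairpins.

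**Figure D2:**
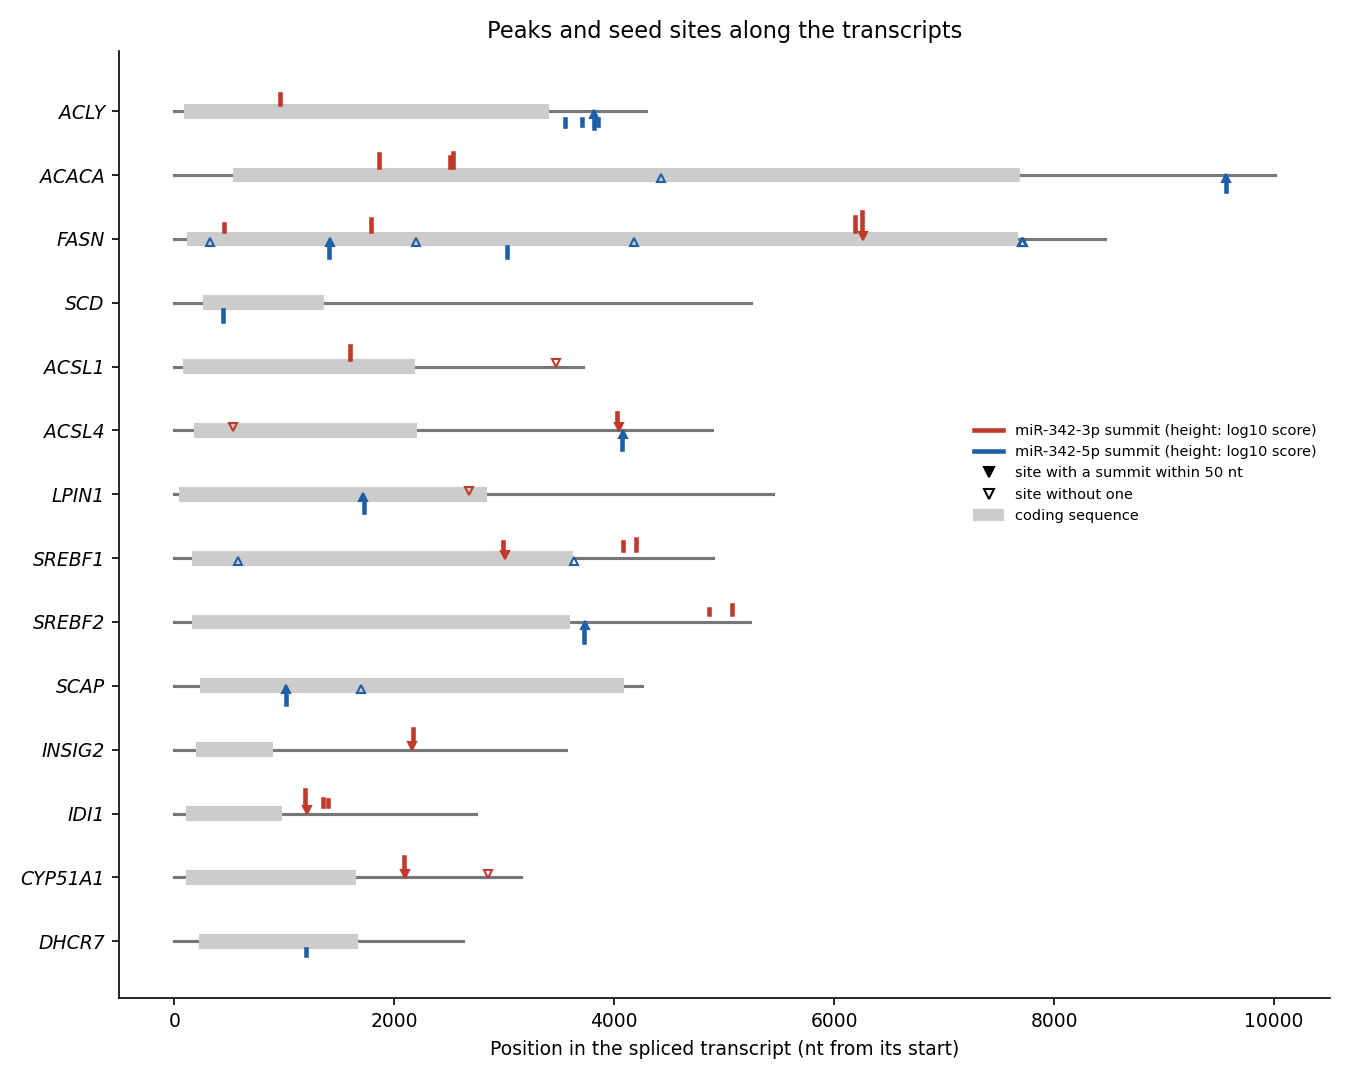
Peak summits and seed sites along the spliced canonical transcript of 14 genes, in nt from the transcript start, with the coding sequence as a grey bar; ticks above the line are miR-342-3p summits and ticks below are miR-342-5p summits, their height growing with log10 score. FADS2 is left out because its peak lies in none of its transcripts, and the 4 miR-342-5p ticks of ACLY gather in the 3′UTR while its miR-342-3p tick lies in the coding sequence.

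In sterol synthesis, 2 of 12 genes (16.7%) had a miR-342-3p peak and 1 (8.33%) had a miR-342-5p peak, beside the 11.8% of all protein-coding genes in each list. IDI1, which isomerises isopentenyl diphosphate, had the second highest miR-342-3p score of the set by gene. The peak at chr10:1086872-1086962 scored 183 (rank 179 of 3450), lies 220 nt after the stop codon and has a 7mer-A1 site 12 nt from its summit. Neighbouring peaks of 11 and 6, 379 and 430 nt after the stop codon, had no match. CYP51A1, the lanosterol demethylase, had a miR-342-3p peak of score 64 at chr7:91742503-91742556 in its 3′UTR, with a 7mer-m8 site 9 nt from the summit that pairs with bases 2 to 9. For the CYP51A1 peak and the IDI1 peak of score 6, the 30 nt around the summit had a second copy elsewhere in the genome, outside annotated genes. The CYP51A1 position also lies within ENSG00000285772 and ENSG00000289027, so the reads cannot be told apart between these genes.

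DHCR7, which catalyses the last step to cholesterol, had a miR-342-5p peak of score 7 at the edge of coding exon 8 (chr11:71148858-71148899). A 6mer appeared there once the exons were joined. The early enzymes HMGCS1, MVK, PMVK and MVD had no peak, nor did FDPS, FDFT1, SQLE, LSS and SC5D.

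The mimics were then compared over all peaks of the set. Fisher's tests here count peaks or sites with replicates merged, so they cover counting error and not variation between transfections. They also treat peaks of the same gene as independent, which they are not. Both had an equal share of peaks in the 3′UTR, with 10 of 20 for miR-342-3p (50%, 95% Wilson CI 29.9 to 70.1) and 7 of 14 for miR-342-5p (50%, 95% Wilson CI 26.8 to 73.2). The difference was thus 0 percentage points (Fisher's exact test, two-sided, p = 1, adjusted p = 1), and the intervals leave room for a large difference in either direction. Of the 7 miR-342-5p 3′UTR peaks, 4 were those of ACLY. Over all nuclear peaks, 34.2% lay in a 3′UTR after miR-342-3p and 18% did after miR-342-5p. The remaining miR-342-3p peaks lay in coding exons (10 of 20), as did 6 of 14 miR-342-5p peaks, and no peak of the set was in a 5′UTR or an intron.

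A 7mer or 8mer site of the transfected mimic lay near 7 of 20 miR-342-3p summits (35.0%, 95% CI 18.1 to 56.7) and near 8 of 14 miR-342-5p summits (57.1%, 95% CI 32.6 to 78.6). Such a site lay near 20.6% of all nuclear miR-342-3p summits and 33.2% of all nuclear miR-342-5p summits. The difference of 22.1 percentage points between the mimics did not pass the threshold of 0.05 (Fisher's exact test, two-sided, p = 0.296, adjusted p = 0.592). This p covers counting error over peaks alone. The miR-342-3p sites were all 7mers, with 0 of 20 windows holding an 8mer, while 3 of 14 miR-342-5p windows (21.4%) held one, in ACLY and SCAP. Of these 3 windows, 2 are of adjacent ACLY peaks that reach the same 8mer, and both also count in the 8 of 14. An 8mer lay in 8.26% of all nuclear miR-342-3p windows and 9.11% of all nuclear miR-342-5p windows. A 6mer alone was present near 2 summits of each list. No match was found near 11 miR-342-3p summits (55.0%) and 4 miR-342-5p summits (28.6%), beside 76.2% and 50.8% of all nuclear peaks of these lists.

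The opposite strand of the same windows served as background for the sites. It held a 7mer or 8mer in 0 of 20 miR-342-3p windows (upper 95% Wilson bound 16.1%) against 7 on the peak strand (exact McNemar test, p = 0.0156, adjusted p = 0.0469), in FASN, SREBF1, INSIG2, IDI1, CYP51A1 and ACSL4. For miR-342-5p it was 0 of 14 (upper bound 21.5%) against 8 (exact McNemar test, p = 0.00781, adjusted p = 0.0469), in ACLY, ACACA, FASN, SREBF2, SCAP, LPIN1 and ACSL4. The 8 include both ACLY peaks that reach the same 8mer. Peaks within a gene are not independent, and with the highest-scoring peak of each gene alone, 5 of 10 miR-342-3p peaks (exact McNemar test, p = 0.0625, adjusted p = 0.188) and 7 of 10 miR-342-5p peaks (p = 0.0156, adjusted p = 0.0938) had a site. The adjusted p also rose to 0.0938 for both mimics with sites within 25 nt of the summit, with sites inside the peak or at scores of at least 20, and for miR-342-3p in spliced windows, so the adjusted call depends on these settings.

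Sites lay close to the summits. Among the 7 miR-342-3p peaks with a site the distance had a median of 12 nt and ran from 4 to 41 nt, the largest being the intronic match in FASN. Among the 8 miR-342-5p peaks it had a median of 7 nt and ran from 1 to 29 nt, the largest being the low peak of ACLY. The miR-342-3p peaks with a site had a median score of 64, and those without one had 25. Over all nuclear miR-342-3p peaks these medians were closer, at 27.5 and 23. The corresponding miR-342-5p medians were 27.5 and 16.5 in the set and 22 and 17 over all nuclear peaks. Scores with and without a site overlapped in both lists, from 19 to 559 and from 5 to 131 for miR-342-3p.

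**Figure D3:**
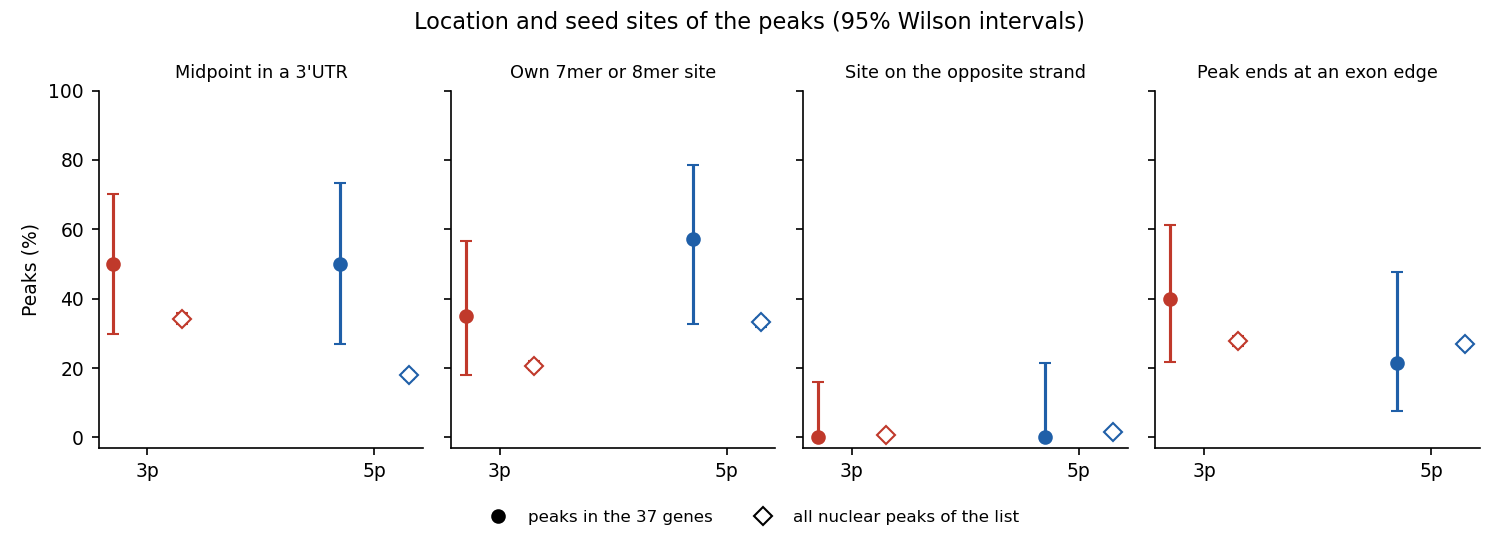
Share of peaks (%) with a midpoint in a 3′UTR, with an own 7mer or 8mer site, with such a site on the opposite strand and with an end at an exon edge, for miR-342-3p and miR-342-5p; filled points are the peaks in the 37 genes, open diamonds all nuclear peaks, and bars 95% Wilson intervals. The intervals of the 2 mimics in the 37 genes overlap in every panel, and no opposite-strand site was found among these peaks.

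Some peaks began or ended at an exon edge, and in the set all of these lay in coding exons. Over peaks of every location, they were 8 of 20 miR-342-3p peaks (40.0%), in FASN, ACACA, ACLY and SREBF1, beside 27.9% of all miR-342-3p peaks. They were 3 of 14 miR-342-5p peaks (21.4%), in FASN, LPIN1 and DHCR7, beside 26.9% of all miR-342-5p peaks. The set and the lists differ in their share of coding peaks, with 50% beside 55.1% for miR-342-3p and 42.9% beside 70.3% for miR-342-5p. Peaks of the set were placed on transcripts of their own gene, and those of the lists on transcripts of any gene. The FADS2 peak, coding in FEN1, is therefore not among the 42.9%. When the windows were read from the spliced transcripts, 6 of 20 miR-342-3p peaks (30.0%) and 8 of 14 miR-342-5p peaks (57.1%) had a 7mer or 8mer site, beside 22.8% and 35.1% of all nuclear peaks. With 6mers included, these were 10 of 20 (50%) and 11 of 14 (78.6%), beside 25.9% and 51.7%. Runs of G and U of 12 nt or more, present in 10.3% of all miR-342-3p windows, were present in none of the 20 windows of the set, where the longest was 10 nt, in CYP51A1.

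The reverse question was which of the available sites had a peak. The exons of the set hold 22 miR-342-3p sites of 7 or 8 nt in 16 genes, and 6 of them, in 6 genes, had a summit within 50 nt. They hold 32 miR-342-5p sites in 19 genes, and 7 of them, in 7 genes, had one. For miR-342-3p, 4 of 14 sites in 3′UTRs (28.6%) and 2 of 7 in coding exons (28.6%) were bound, so the shares were equal (Fisher's exact test, two-sided, p = 1, adjusted p = 1). Among miR-342-5p sites, 4 of 17 in 3′UTRs (23.5%) and 3 of 13 in coding exons (23.1%) were bound, a difference of 0.452 percentage points (Fisher's exact test, two-sided, p = 1, adjusted p = 1). The 17 include the 3 overlapping FASN sites, which are not independent. Within the 15 genes of the set that have a peak in either list, 4 of 7 miR-342-3p sites in 3′UTRs (57.1%) and 2 of 4 in coding exons (50%) were bound, as were 4 of 10 (40%) and 3 of 9 (33.3%) of the miR-342-5p sites. Over the sites of all protein-coding genes with a peak in either list, chosen in that same way, the bound share of miR-342-3p sites was 15.4% in 3′UTRs and 25.6% in coding exons, and that of miR-342-5p sites 22.7% and 45.2%.

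Sites without a peak were found throughout the set. In 9 genes a miR-342-3p site was present but no miR-342-3p peak, among them SC5D with 2 sites and STARD4, a sterol carrier, with 3. In 10 genes a miR-342-5p site was present but no miR-342-5p peak, among them the isoprenoid enzyme FDPS and the lanosterol synthase LSS with 2 sites each. Conversely, 3 genes had a miR-342-3p peak without an exonic miR-342-3p site (ACLY, ACACA and SREBF2), and SCD was the 1 gene with a miR-342-5p peak and no exonic miR-342-5p site. Whether the unbound sites lie in transcripts that the cells express was not tested.

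**Figure D4:**
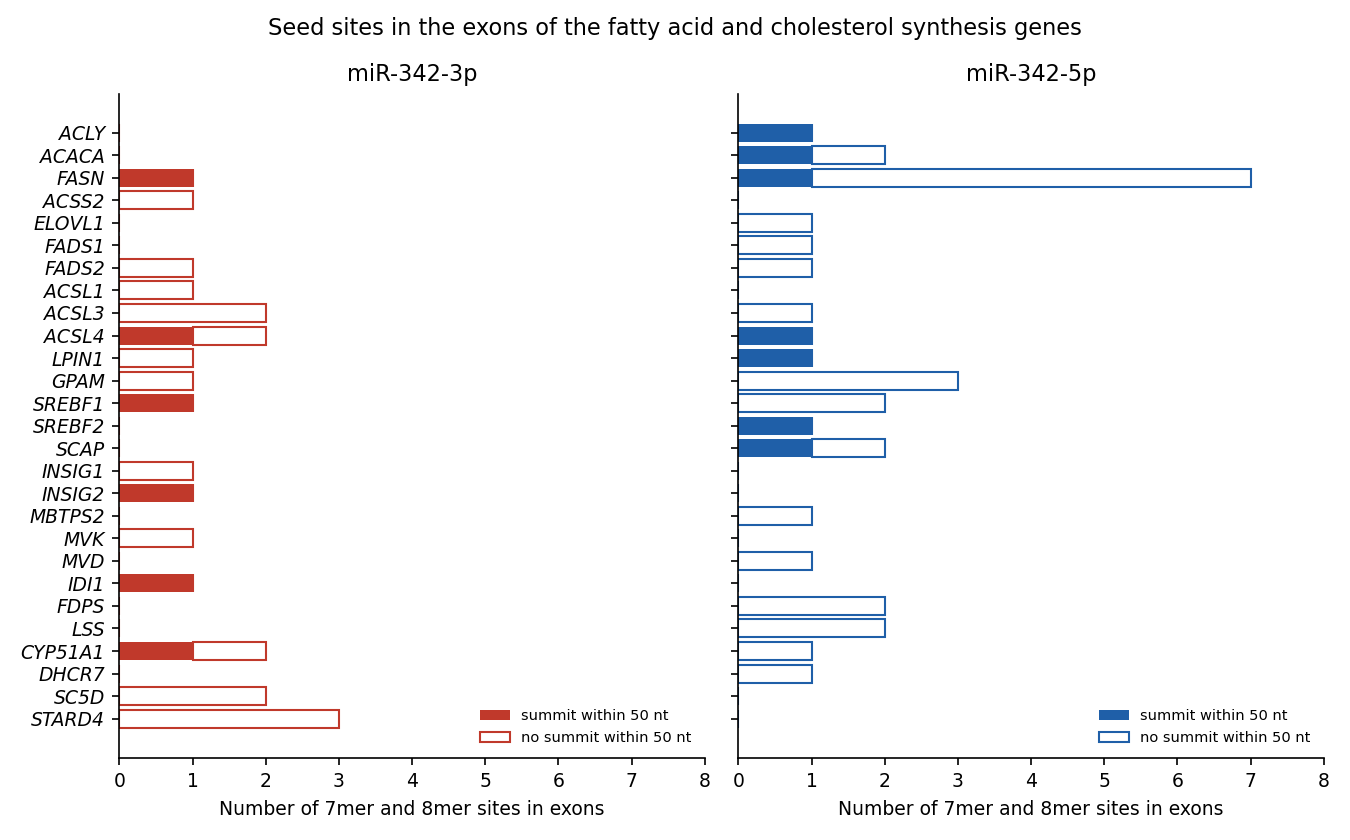
Number of 7mer and 8mer sites in the exons of each gene with at least 1 site, for miR-342-3p (left) and miR-342-5p (right); filled bars are sites with a summit of that mimic within 50 nt and open bars are sites without. No gene has more than 1 filled site for a mimic, and FASN has the most miR-342-5p sites, 7, with 1 of them filled and 3 overlapping in the 3′UTR.

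A further list of 47 genes around the same pathways was counted in the same way. A miR-342-3p peak lay in 10 of them (21.3%) and a miR-342-5p peak in 11 (23.4%), beside 11.8% of all protein-coding genes in each list. In the set of 37 genes the share was 27.0% for each mimic. Their 14 miR-342-3p peaks included 1 with a 7mer or 8mer site, in ERLIN1, and their 16 miR-342-5p peaks included 5. Over all nuclear peaks, 20.6% of the miR-342-3p list and 33.2% of the miR-342-5p list had such a site. TECR, a reductase of fatty acid elongation, had a miR-342-5p peak of 152 in its 3′UTR without a site. MID1IP1, which promotes polymerisation of acetyl-CoA carboxylase, had a miR-342-3p peak of 90 in its 3′UTR without a site. EBP, a sterol isomerase, had a miR-342-3p peak of 84 in its coding sequence without a site.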

How the data were processed

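The authors' processing notes name cutadapt 1.13, UMI-tools, TopHat2 2.0.13 and MACS2 2.1.1.20160309 with hg19. The deposited values are a score per peak, called for each mimic over the negative control with replicates merged and strands separate, and both lists start at 5. Depth and scaling are not given in the sources used here. Coordinates are printed from 1. Midpoints were placed on basic GENCODE 44 transcripts mapped to GRCh37, in the order 3′UTR, coding exon (stop codon included), 5′UTR, non-coding exon, intron. Mitochondrial peaks were left out of shares of all peaks. Sites were searched within 50 nt of summits on the genome. The p-values of 6 tests were adjusted by Benjamini-Hochberg, at a threshold of 0.05. The members and lists were chosen with earlier results of these data known. Described in full were genes with a site near a summit and the 5 highest scores per list, and other genes are named by count. Alternatives were other scores, windows, site types, locations, 1 peak per gene and spliced sequence. Python 3.11.15, pandas 2.3.3, scipy 1.17.1, statsmodels 0.14.6, pysam 0.24.0, samtools 1.23.1 and matplotlib 3.10.9 were used. On simulated data, 500 of 500 planted sites were found for each mimic.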

Additional observations from a re-analysis of the deposited data

How the results depend on the processing

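No paired analysis was possible because the deposited lists merge the replicates of each mimic and hold no value per library, and for the same reason no replicate could be left out. Under the alternatives, 57 values kept their direction and their side of the threshold by the unadjusted p, or stayed within 1.5 times for counts. Where the main difference was 0 there was no direction to keep, and only the threshold counted. The 3′UTR share of miR-342-5p minus that of miR-342-3p ranged from -20 to 5 percentage points. It was -20 with the highest-scoring peak of each gene (4 of 10 against 6 of 10, Fisher's exact test, two-sided, p = 0.656). The miR-342-3p difference between bound sites in 3′UTRs and coding exons reached 14.3 percentage points at scores of at least 20. The miR-342-5p peaks fell to 9 at scores of at least 20. With the highest-scoring peak of each gene (chosen after seeing the data), 10 peaks remain for each mimic. That count is fixed by construction, as it equals the number of genes with a peak. The difference between strands for miR-342-3p was 50 percentage points with the highest-scoring peak of each gene but no longer passed (exact McNemar test, p = 0.0625). With 8mers alone it was 0 for miR-342-3p (exact McNemar test, p = 1) and 21.4 percentage points for miR-342-5p (exact McNemar test, p = 0.25), where fewer windows hold a site. For miR-342-5p, the difference between bound sites in 3′UTRs and coding exons changed sign at scores of at least 20, to -5.43 percentage points (3 of 17 against 3 of 13 sites, Fisher's exact test, two-sided, p = 1), as the ACACA peak of 17 left the list. Bound miR-342-3p sites in coding exons could not be compared for 8mers alone, since the coding exons hold none. After adjustment over the 6 tests within each setting, the comparison of strands passed for neither mimic with the highest-scoring peaks, scores of at least 20, sites within 25 nt or sites inside the peak. In spliced windows, also chosen after seeing the data, it passed for miR-342-5p (adjusted p = 0.0469, exact McNemar test) and not for miR-342-3p (adjusted p = 0.0938). The numbers of peaks are small, and the unknown depth limits what the absence of a peak can show.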
